A study of Mus musculus with 4 samples.

Results

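Apoptotic cell clearance was examined through 10 genes, chosen by symbol for their known roles among the 49993 genes listed with a count, 0 included, in each library. They encode the TAM receptors Axl, Mertk and Tyro3, their bridging ligands Gas6 and Pros1, the bridging protein Mfge8, the engulfment proteins Elmo1 and Dock2, the phosphatidylserine-binding receptor Cd300lf and the don't-eat-me ligand Cd47. All 10 passed the filter on low counts and were among the 21439 genes tested. The assay was bulk RNA-seq of CD11b+ microglia, the resident macrophages of the brain, taken from 10-month-old mice by magnetic sorting. Every mouse carried APP/PS1, transgenes that make amyloid build up in the brain. In the AD group (APP/PS1+ asrij+/+, n = 2 libraries) the asrij gene was intact, and in the AD/KO group (APP/PS1+ asrij-/-, n = 2 libraries) it is labelled as deleted constitutively, that is, not in microglia alone. The promoter of the transgenes, the sex of the mice and whether a library came from 1 mouse or several are not given in the sources used here. P-values therefore measure the spread between these libraries, which may be technical in part.

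A dying cell moves the lipid phosphatidylserine to its outer surface, where bridging proteins such as Gas6, Pros1 and Mfge8 attach to it. Phagocytes hold these bridges with TAM receptor kinases or integrins, and Elmo and Dock proteins then switch on the GTPase Rac, which drives the membrane around the corpse. Cd47 on healthy cells restrains this process. In macrophages, Mertk is known as the receptor of the resting state and Axl as one induced by inflammation, and Axl is counted among the genes of plaque-associated microglia.

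The libraries held from 13102622 to 19810076 counts. Mitochondrial protein-coding genes took 0.943% and 2.53% of the counts in AD and 2.12% and 3.74% in AD/KO. The deleted gene, Ociad1 (asrij), was at 50.2 and 63.4 CPM (each gene's reads relative to the TMM-scaled library total) in the AD libraries and at 38.9 and 32.1 CPM in the AD/KO libraries. It was lower in AD/KO but not lost, so AD/KO means the libraries labelled AD/KO throughout, and directions are given between labels. The microglial markers were present in all libraries, and Itgam, which encodes CD11b, stood at 374 to 1313 CPM. The 12 microglial markers summed to 18228 and 12458 CPM in AD and to 18462 and 5345 CPM in AD/KO, lowest in AD/KO replicate 2. The 9 astrocyte markers summed to 1878 and 4415 CPM in AD and to 4588 and 11740 CPM in AD/KO, with 8 of the 9 higher in both AD/KO libraries and none at 0. The 10 neuronal markers summed to 366 and 1233 CPM in AD and to 918 and 2895 CPM in AD/KO, with 2 of the 10 higher in both AD/KO libraries and none at 0. AD replicate 2 stood apart by its neutrophil markers (9 genes, 3682 CPM summed against 246 to 390 CPM in the other 3 libraries) and by 1391 reads of Xist, which coats the silenced X, against 3 to 15 reads elsewhere. By Xist, AD replicate 2 held female RNA and the other 3 libraries little or none. The groups were thus not matched for sex, and its part in the results was not tested. The 8 monocyte and border macrophage markers summed to 144 and 139 CPM in AD and to 71.5 and 55.5 CPM in AD/KO, with 6 of the 8 lower in both AD/KO libraries. Over all genes tested, 21.7% were lower in both AD/KO libraries and 20.3% higher. The 2 of 10 neuronal markers lay near the latter share. In bulk RNA, fewer cells of a type and less RNA per cell cannot be told apart.

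None of the clearance genes passed the test between AD/KO and AD. With the quasi-likelihood test of edgeR and Benjamini-Hochberg adjustment, 0 of the 10 had an adjusted p under 0.05, against 0 of all genes tested (0.0%). At an unadjusted p under 0.05 there was 1 member, Mfge8, where the background was 5.0% of all genes, and DESeq2 called 0 of the 10, where the background was 0.462%. The groups did not overlap in 4 members, where the background was 42.0% of all genes: AD/KO was the lower group in 3 (Axl, Cd300lf and Cd47; background 21.7%) and the higher in 1 (Mfge8; background 20.3%). In the other 6 members the groups overlapped. When the fit had a replicate block, 5 members passed (Tyro3, Pros1, Mfge8, Dock2 and Cd300lf), where the background was 20.2%, and the labels do not say that the numbers pair the libraries. An exact permutation test of 2 libraries against 2 cannot give a two-sided p below 0.333. The median log2 fold change of the 10 genes was −0.47, with 7 lower and 3 higher in AD/KO, beside a median of −0.048 over all genes tested, of which 52.8% were lower.

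**Figure D1:**
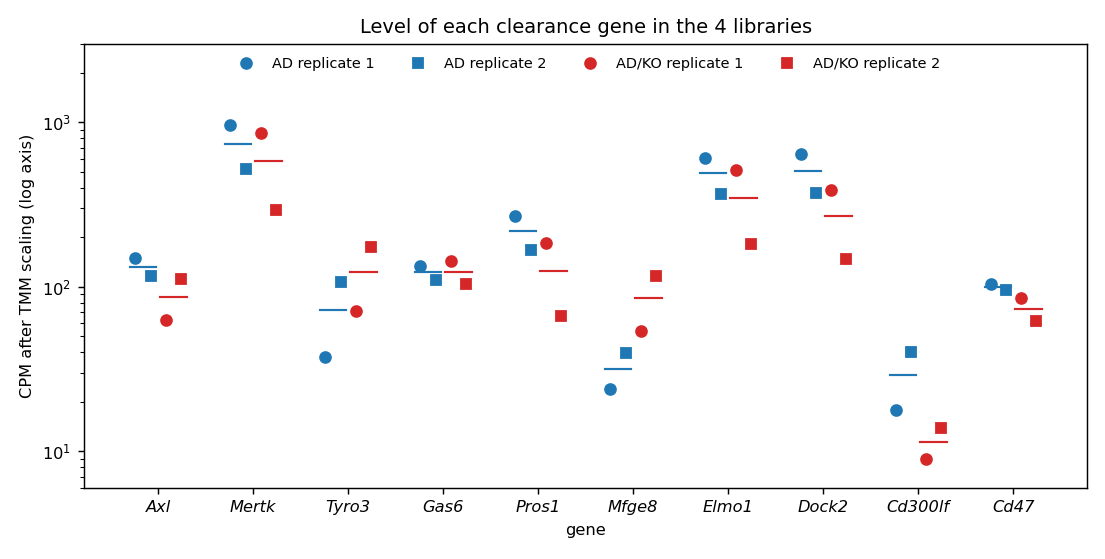
The plot of levels gives CPM after TMM scaling on a log axis for each gene, with 1 point per library and a line at the mean of each group (blue, AD; red, AD/KO; circles, replicate 1; squares, replicate 2). The red points of Axl, Cd300lf and Cd47 lie below the blue ones, those of Mfge8 lie above, and the others overlap.

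Levels of different genes were compared per kilobase of exon. Mertk had the highest level of the 10, at a mean of 153 CPM per kilobase over the 4 libraries, and its lowest library (67.2) lay above the highest library of every other member (66.2, Pros1). Gas6 followed at 48.4, Pros1 at 42.1, Dock2 at 33.9, Elmo1 at 33.2, Axl at 21.8, Tyro3 at 15.7, Cd47 at 13.8, Mfge8 at 12.5 and Cd300lf at 3.92 CPM per kilobase. Each of these neighbours overlapped with the next in its range over libraries, from Gas6 (40.9 to 56.4) and Pros1 (16.2 to 66.2) down to Mfge8 (5.13 to 24.7) and Cd300lf (1.74 to 7.82).

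The promoters of the receptors Axl and Mertk are shown because these genes, though members of one receptor family, had different profiles over the libraries. Each is the 250 bases before a start site from RefSeq (GRCm38.p6), read 5′ to 3′ on the gene's strand. Matches to the GC box GGGCGG or its reverse complement CCGCCC are in capitals. The start site used for Mertk is the first base of the gene, and that for Axl lies inside the gene. Axl is given up to 25788924 on the minus strand, so part of the stretch shown lies within it.
Axl, chr7:25788734-25788983, minus strand: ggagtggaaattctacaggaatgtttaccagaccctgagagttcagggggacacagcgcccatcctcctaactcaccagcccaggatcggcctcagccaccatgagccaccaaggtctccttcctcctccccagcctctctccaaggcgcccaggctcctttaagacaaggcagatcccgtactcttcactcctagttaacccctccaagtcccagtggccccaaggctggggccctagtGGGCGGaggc
Mertk, chr2:128698665-128698914, plus strand: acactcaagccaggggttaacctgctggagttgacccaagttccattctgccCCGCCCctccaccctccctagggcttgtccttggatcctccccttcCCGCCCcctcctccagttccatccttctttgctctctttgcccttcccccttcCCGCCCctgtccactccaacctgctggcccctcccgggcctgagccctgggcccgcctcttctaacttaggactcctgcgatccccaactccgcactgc
Axl had 1 match in this stretch, starting at position −10 from the start site used. Mertk had 3, starting at −198, −152 and −99. In windows from 250 bases before to 50 bases after a start site, 8 of the 10 members held this motif on either strand. So did 57.7% of the 14936 tested genes in the table.

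Axl (gene ID 26362, chromosome 7, 25756500 to 25788924, protein-coding) encodes a receptor tyrosine kinase that binds Gas6. Its level was 150.2 and 115.7 CPM in the AD libraries and 62.5 and 111.3 CPM in the AD/KO libraries. AD/KO replicate 1 was well below the other 3, and AD/KO replicate 2 lay just under AD replicate 2. The AD mean was 133 ± 24.4 CPM (SD, n = 2) and the AD/KO mean 86.9 ± 34.5 CPM (SD, n = 2), which gave a log2 fold change of −0.61 (SE 0.40). This fold change did not pass the threshold (adjusted p = 0.680, edgeR quasi-likelihood test, Benjamini-Hochberg). It was −0.20 without AD/KO replicate 1 and −1.08 without AD/KO replicate 2. Scaled to 18 microglial genes rather than by TMM it was 0.30, while the median of all genes moved from −0.048 to 0.60, so that Axl lay below that median under both scalings.

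Mertk (gene ID 17289, chromosome 2, 128698915 to 128803162, protein-coding) encodes a TAM receptor that binds both Gas6 and Pros1. Its level was 964 and 522 CPM in the AD libraries and 867.5 and 291.5 CPM in the AD/KO libraries. The groups overlapped, and in both groups replicate 1 was higher than replicate 2. The AD mean was 743 ± 313 CPM (SD, n = 2) and the AD/KO mean 579.5 ± 407 CPM (SD, n = 2). The log2 fold change was −0.36 (SE 0.70) and did not pass (adjusted p = 0.845, edgeR quasi-likelihood test, Benjamini-Hochberg). Its direction turned when AD/KO replicate 2 was left out (0.23) and when AD replicate 1 was left out (0.15). With scaling to the microglial genes it was 0.0030, beside the all-gene median of 0.60.

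Tyro3 (gene ID 22174, chromosome 2, 119797740 to 119818104, protein-coding) encodes the TAM receptor best known from neurons. Its level was 37.2 and 107 CPM in AD and 71.6 and 174 CPM in AD/KO, with AD/KO replicate 2 highest and AD replicate 1 lowest. The log2 fold change was 0.77 (SE 0.68; adjusted p = 0.705, edgeR quasi-likelihood test, Benjamini-Hochberg), and without AD/KO replicate 2 it was 0.0026. Without AD replicate 2 it was 1.78. The summed neuronal markers and the mitochondrial share had the same order of libraries, as did the endothelial and mural markers and 16.02% of all genes tested, and their part in this result was not tested. Per kilobase, Mertk made up 86.1% and 75.0% of the TAM receptor reads in the AD libraries and 89.3% and 57.3% in the AD/KO libraries. Axl made up 11.6% and 14.3% in AD and 5.54% and 18.8% in AD/KO, and Tyro3 2.33% and 10.7% in AD and 5.16% and 23.9% in AD/KO. Mertk was thus the main TAM transcript in all 4 libraries, by the widest margin in AD/KO replicate 1 and the narrowest in AD/KO replicate 2. The ratio of Axl to Mertk per kilobase, which does not depend on the scaling of libraries, was 0.134 and 0.191 in AD and 0.0621 and 0.329 in AD/KO. The AD/KO libraries lay on either side of the AD libraries.

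Gas6 (gene ID 14456, chromosome 8, 13465374 to 13494535, protein-coding) encodes the vitamin K-dependent ligand of all TAM receptors. It varied least of the 10 genes, at 134 and 110.5 CPM in AD and 144 and 104 CPM in AD/KO, a ratio of highest to lowest library of 1.38. Its log2 fold change was 0.018 (SE 0.33; adjusted p = 0.984, edgeR quasi-likelihood test, Benjamini-Hochberg). The direction turned without AD replicate 2 (−0.050) and without AD/KO replicate 1 (−0.18).

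Pros1 (gene ID 19128, chromosome 16, 62854307 to 62929346, protein-coding) encodes protein S, an anticoagulant of the blood that also activates Mertk and Tyro3. Its level was 271 and 168 CPM in AD and 184 and 66.4 CPM in AD/KO. AD/KO replicate 1 lay between the AD libraries and AD/KO replicate 2 below them. The log2 fold change was −0.81 (SE 0.59; adjusted p = 0.682, edgeR quasi-likelihood test, Benjamini-Hochberg). It was −0.24 without AD/KO replicate 2 and −1.67 without AD/KO replicate 1. The ratio of Gas6 to Pros1 per kilobase was 0.797 and 1.06 in AD and 1.25 and 2.52 in AD/KO. Gas6 therefore made up more of the pair in both AD/KO libraries than in both AD libraries. The share of other gene pairs without overlap was not computed, and 42.0% of single genes did not overlap.

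Mfge8 (gene ID 17304, chromosome 7, 79133768 to 79149060, protein-coding) encodes a secreted protein that links phosphatidylserine to alpha-v integrins. Its level was 24.1 and 39.6 CPM in AD and 54.1 and 116 CPM in AD/KO, so that the groups did not overlap and AD/KO was higher. The AD mean was 31.8 ± 11.0 CPM (SD, n = 2) and the AD/KO mean 85.1 ± 43.8 CPM (SD, n = 2), which gave a log2 fold change of 1.42 (SE 0.50). It had the smallest unadjusted p of the members (0.0368), and it did not pass after adjustment (adjusted p = 0.680, edgeR quasi-likelihood test, Benjamini-Hochberg). Without AD/KO replicate 2 the log2 fold change was 0.78. Mfge8 is known to be made by astrocytes as well as by phagocytes. The summed astrocyte markers and the summed oligodendrocyte lineage markers (9 genes each, none at 0 in any library) had the same order of libraries as Mfge8, as did 15.1% of all genes tested. Most of the oligodendrocyte lineage sum was Mbp (5620 of 6693 CPM in AD/KO replicate 2). Of that list, 6 of 9 genes had log2 fold changes above 0, and Mag and Mog were highest in AD replicate 2. The part of these cells in the Mfge8 result was not tested.

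Elmo1 (gene ID 140580, chromosome 13, 20090507 to 20608353, protein-coding) encodes the adaptor that brings Dock proteins to the membrane. Its level was 609 and 369.5 CPM in AD and 512 and 181.5 CPM in AD/KO, with overlap and with replicate 2 lower in both groups. The log2 fold change was −0.50 (SE 0.64; adjusted p = 0.773, edgeR quasi-likelihood test, Benjamini-Hochberg), and it turned to 0.077 without AD/KO replicate 2. Elmo1 shares 403 exon bases with the antisense gene Gm32036, which itself had 1187 to 4690 reads. Since the use of strand in counting is not given in the sources used here, reads of these genes may have been mixed.

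Dock2 (gene ID 94176, chromosome 11, 34226815 to 34783905, protein-coding) encodes a Rac activator of the haematopoietic lineage, microglia included. Its level was 640 and 375 CPM in AD and 387 and 148 CPM in AD/KO. AD/KO replicate 1 stood just above AD replicate 2, and AD/KO replicate 2 was lowest. The log2 fold change was −0.92 (SE 0.62; adjusted p = 0.680, edgeR quasi-likelihood test, Benjamini-Hochberg), and it was −0.38 without AD/KO replicate 2 and −1.72 without AD/KO replicate 1. Dock2 shares 460 exon bases with the antisense gene 4930403D09Rik, which had 49 to 194 reads. The ratio of Elmo1 to Dock2 per kilobase was close between replicates, at 0.864 and 0.896 in AD and 1.201 and 1.110 in AD/KO. Relative to its partner Elmo1, Dock2 was thus lower in AD/KO, with no overlap between the groups. How often other gene pairs separate in this way was not computed, and 42.0% of single genes did not overlap. Reads of the antisense genes Gm32036 and 4930403D09Rik may be mixed into these counts, and their part in the ratio was not tested. The ratios of Axl to Mertk and of Gas6 to Pros1 were planned, and those of Elmo1 to Dock2 and of Tyro3 to Mertk were added after values had been seen.

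Cd300lf (gene ID 246746, chromosome 11, 115116214 to 115135372, protein-coding) encodes a receptor of myeloid cells that binds phosphatidylserine and carries inhibitory motifs. It was the least abundant member, with 172 to 655 reads. Its level was 17.7 and 40.3 CPM in AD and 8.97 and 13.8 CPM in AD/KO, with AD replicate 2 far above the rest. The AD mean was 29.0 ± 15.9 CPM (SD, n = 2) and the AD/KO mean 11.4 ± 3.44 CPM (SD, n = 2), which gave a log2 fold change of −1.35 (SE 0.52; adjusted p = 0.680, edgeR quasi-likelihood test, Benjamini-Hochberg). Without AD replicate 2, the library with the most neutrophil reads, it was −0.57. The part of neutrophil RNA in this result was not tested. A transcript of Cd300lf matches one of its neighbour Cd300ld (39 to 177 reads) at 95.1% identity over 344 bases, so that reads could be shared between them.

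Cd47 (gene ID 16423, chromosome 16, 49851328 to 49912503, protein-coding) encodes the surface protein that tells phagocytes not to engulf, through Sirpa. Its level was 104.6 and 95.9 CPM in AD and 85.0 and 61.9 CPM in AD/KO, a narrow range with no overlap and AD/KO the lower group. The AD mean was 100.3 ± 6.11 CPM (SD, n = 2) and the AD/KO mean 73.5 ± 16.3 CPM (SD, n = 2). The log2 fold change was −0.45 (SE 0.31; adjusted p = 0.680, edgeR quasi-likelihood test, Benjamini-Hochberg), and it was 0.14 when libraries were scaled to the microglial genes, below the median of 0.60 that all genes then had. It was −0.23 without AD/KO replicate 2. The summed monocyte and border macrophage markers were also lower in both AD/KO libraries, as in Axl, Cd300lf and Cd47, and their part in these results was not tested.

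**Figure D2:**
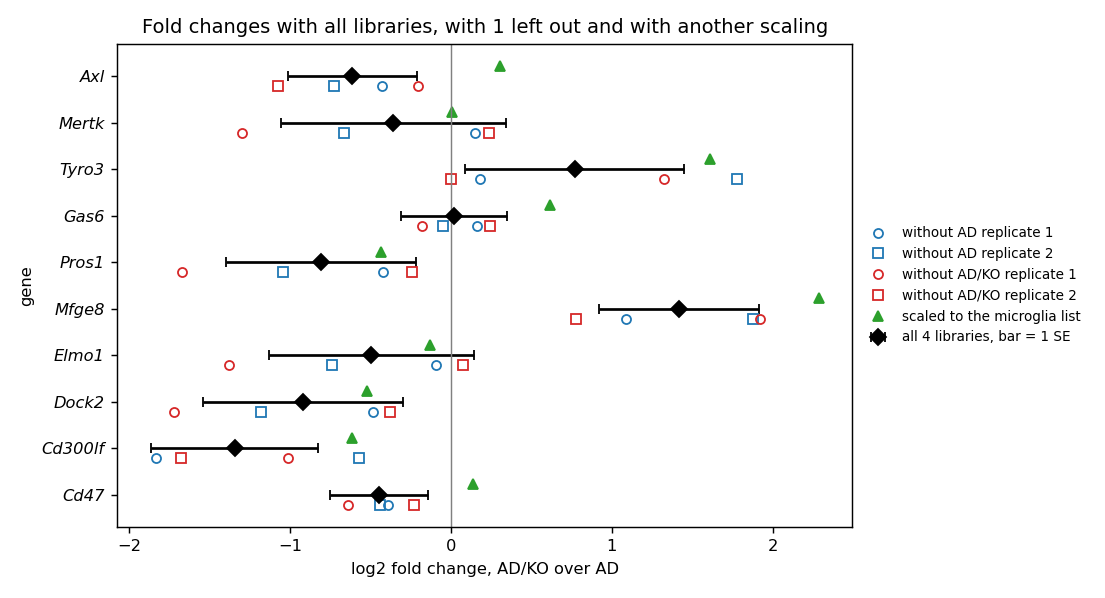
The plot of fold changes gives the log2 fold change of AD/KO over AD for each gene (black diamond, all 4 libraries with 1 SE), with each library left out in turn (open symbols) and with scaling to the microglial genes (green triangle). The open symbols of Mertk, Gas6 and Elmo1 lie on both sides of 0. Those of the other members stay on one side, with Tyro3 at 0.0026 without AD/KO replicate 2.

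The members fell into a few profiles over the libraries. Mertk, Elmo1, Dock2 and Pros1 shared 1 order, highest in AD replicate 1, then AD/KO replicate 1, AD replicate 2 and AD/KO replicate 2, an order found in 17.3% of all genes tested. In log2 CPM centred on the mean of the 4 libraries, Mertk ran 0.69, −0.19, 0.54 and −1.04 (AD replicates 1 and 2, then AD/KO replicates 1 and 2). The summed microglial markers ran 0.58, 0.026, 0.59 and −1.19 on that scale. Of the members, Gas6 had their order of libraries, which was found in 4.28% of all genes tested. Tyro3 ran −1.17, 0.35, −0.23 and 1.05, beside −1.52, 0.24, −0.19 and 1.47 for the summed neuronal markers. Mfge8 ran −1.04, −0.32, 0.13 and 1.23, beside −1.29, −0.058, −0.0030 and 1.35 for the astrocyte markers and −1.08, −0.36, 0.19 and 1.26 for the oligodendrocyte lineage markers. Axl ran 0.52, 0.14, −0.75 and 0.086, an order found in 1.72% of all genes. Its lowest library was AD/KO replicate 1, as for Cd300lf, and its AD/KO replicate 2 was close to AD replicate 2. The sparse T, B and NK cell markers (7 genes, 2.66 to 5.88 CPM summed) had the order of Axl, and the monocyte and border macrophage markers that of Cd47.

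**Figure D3:**
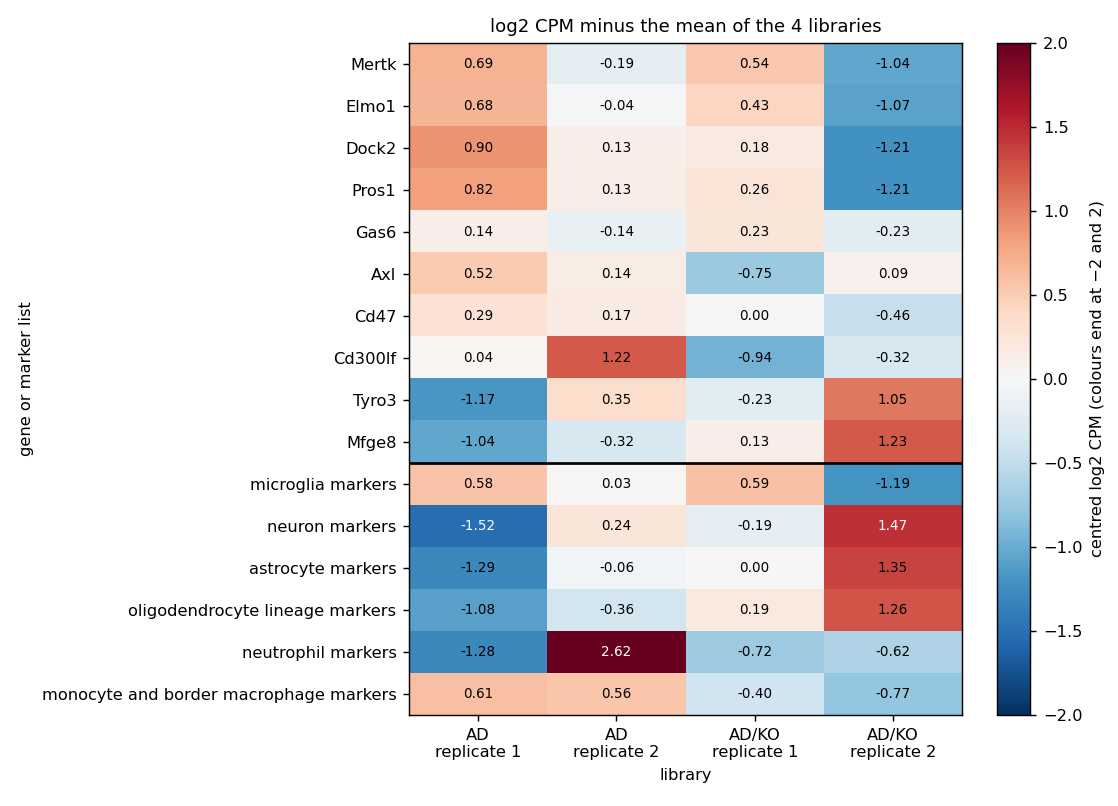
The heat map of profiles gives log2 CPM minus the mean of the 4 libraries for the 10 genes (above the line) and for the summed CPM of 6 marker lists (below it), with the value printed in each cell. Mertk, Elmo1, Dock2, Pros1, Gas6 and Cd47 are lowest in AD/KO replicate 2, like the microglia markers and the monocyte and border macrophage markers. Tyro3 and Mfge8 are highest there, like the neuron, astrocyte and oligodendrocyte lineage markers.

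Among the 13768 other genes with a mean of at least 5 CPM, those closest to Axl by the root mean square distance of centred log2 CPM over the 4 libraries were Myof (0.110), Spef2 (0.152), Gpr22 (0.152), Ildr2 (0.153) and Gm42048 (0.158). Those closest to Mertk were Gm6583 (0.00624), Tlr9 (0.0217), Abhd15 (0.0321), Arhgap27 (0.0338) and I830077J02Rik (0.0348). Of the other members, Elmo1 was nearest to Mertk, at a distance of 0.0952 and rank 80, followed by Pros1 (0.237) and Dock2 (0.277). Axl was 0.871 from Mertk, at rank 8933. With 4 libraries these distances are a description.

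Since the summed microglial markers differed between libraries, the reads of each member were also set against the summed reads of 18 homeostatic microglial genes in the same library. Mertk was then nearly level, at 39.6 and 31.5 reads per 1000 in AD and 35.3 and 35.8 in AD/KO. Elmo1 was at 25.0 and 22.3 in AD and 20.9 and 22.3 in AD/KO, with overlap. Dock2 was at 26.2 and 22.6 reads per 1000 in AD and 15.8 and 18.2 in AD/KO, and Pros1 at 11.1 and 10.1 in AD and 7.48 and 8.17 in AD/KO. These were the 2 members lower in AD/KO with no overlap on this scale, where the background was 10.3% of all genes. On TMM-scaled CPM the groups of both genes overlapped. In the fit scaled to these genes the log2 fold change was −0.52 for Dock2, −0.44 for Pros1 and −0.13 for Elmo1, beside the median of 0.60 over all genes, and it was 2.29 for Mfge8, 1.61 for Tyro3, 0.62 for Gas6 and −0.61 for Cd300lf. Axl was at 6.16 and 6.97 in AD and 2.55 and 13.7 in AD/KO, so that AD/KO replicate 1 was lowest and AD/KO replicate 2 highest. No member had both AD/KO libraries above both AD libraries, where the background was 6.72%.

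**Figure D4:**
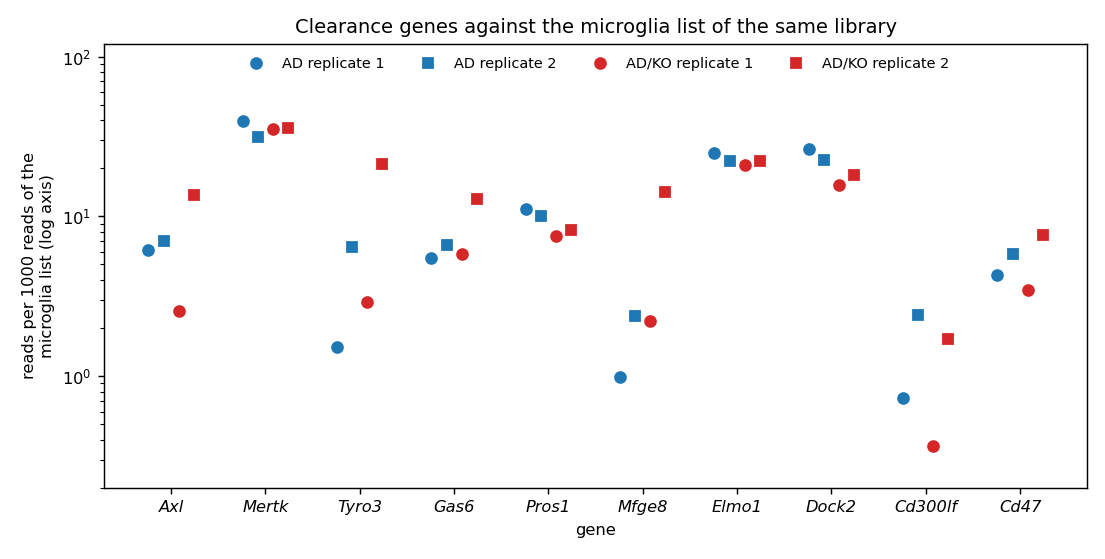
The plot against microglial reads gives, on a log axis, the reads of each gene per 1000 reads of the 18 microglial genes in the same library (blue, AD; red, AD/KO; circles, replicate 1; squares, replicate 2). The red points of Pros1 and Dock2 lie below the blue ones, Mertk is nearly level, and the red points of Axl lie on either side.

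A further sequence is shown because it stood near a start site of 3 members expressed in myeloid cells. It is AGGAAGTG, a sequence of the type bound by ETS factors such as PU.1, searched on both strands. The motif was picked after the promoters had been read. The capitals mark the match in 30 bases from RefSeq (GRCm38.p6), 5′ to 3′ on the gene's strand.
Dock2, chr11:34783891-34783920, minus strand: taaaaagaggaAGGAAGTGgggccctgcaa
Cd300lf, chr11:115133973-115134002, minus strand: gtggctaaaggAGGAAGTGccgagtgagag
Elmo1, chr13:20090527-20090556, plus strand: gccagcaggaggaaggaagAGGAAGTGaga
The match began at position −4 from the start site used in Dock2, 2 in Cd300lf and 40 in Elmo1. The start site used for Cd300lf lies inside the gene, which is given up to 115135372 on the minus strand. Another start site of Elmo1 had no match. The motif was found in 3 of the 10 members and in 4.83% of the 14936 tested genes with a promoter in the table. Because the motif was picked from the members' own promoters, these shares are a description and cannot serve as a test. The other members, Mertk and Axl among them, had no match. These 3 genes did not share a profile: Elmo1 and Dock2 were highest in AD replicate 1 and Cd300lf in AD replicate 2.

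Other genes of apoptotic cell clearance were taken from a list of 77 by role, of which 74 were tested. Of the 74, 0 passed after adjustment with edgeR's quasi-likelihood test, and 0 with DESeq2. At an unadjusted p under 0.05 there were 6, 3 higher and 3 lower in AD/KO, beside 5.0% of all genes. AD/KO was the lower group without overlap in 16 (background 21.7%) and the higher in 12 (background 20.3%), and the groups overlapped in 46. The median log2 fold change was −0.28, with 51 lower and 23 higher, beside 52.8% of all genes lower. It turned to 0.029 without AD/KO replicate 2, and with scaling to the microglial genes it was 0.31, beside 0.60 over all genes. By role, 5 of 5 genes of phosphatidylserine exposure had values below 0 (median −0.28), 3 of them without overlap. Both proteases that shed TAM receptors had values below 0, with overlap (median −0.55). Values below 0 were found in 11 of the 15 tested receptors and 10 of the 15 engulfment signalling genes, and these roles held genes without overlap in both directions. The 7 corpse digestion genes went both ways, from −0.49 for Atg5 to 0.46 for Rubcn, both without overlap and both named after their values were seen. None of the genes in these roles passed, and the background for a value below 0 is the 52.8%.

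By the rule for naming, the genes lowest in AD/KO were Lgals3, Cd300lb and Cd200r1. Lgals3, which encodes galectin-3, a lectin reported to act as a Mertk ligand, was at 12.05 and 32.6 CPM in AD and 5.16 and 4.88 CPM in AD/KO, with a log2 fold change of −2.15 (SE 0.58). Cd300lb, an activating relative of Cd300lf, was at 9.29 and 24.9 CPM in AD and 3.70 and 5.86 CPM in AD/KO (log2 fold change −1.84, SE 0.62). Both were highest in AD replicate 2, the library with the most neutrophil and Xist reads. AD replicate 1 had the lowest neutrophil sum (246 CPM, against 363 and 390 CPM in AD/KO) and was also above both AD/KO libraries in both genes. The part of neutrophil RNA and of sex in these values was not tested. Cd200r1, an inhibitory receptor of myeloid cells, was at 17.6 and 12.05 CPM in AD and 11.99 and 2.71 CPM in AD/KO (log2 fold change −1.01, SE 0.76).

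The genes highest in AD/KO were Adgrb1, Cx3cl1 and Ptpn11. Adgrb1, the phosphatidylserine receptor BAI1, which signals through Elmo and Dock, was at 83.8 and 243 CPM in AD and 382 and 1083 CPM in AD/KO, with a log2 fold change of 2.17 (SE 0.80). Cx3cl1, the find-me chemokine fractalkine, was at 6.68 and 15.98 CPM in AD and 22.5 and 78.7 CPM in AD/KO (log2 fold change 2.16, SE 0.77). Ptpn11, the phosphatase SHP2, was at 94.2 and 131 CPM in AD and 148 and 256 CPM in AD/KO (log2 fold change 0.85, SE 0.42). All had the order of libraries of the summed astrocyte and summed oligodendrocyte lineage markers, an order found in 15.1% of all genes tested. The part of these cells in the values was not tested. None of the 6 named genes passed (adjusted p from 0.680 to 0.685, edgeR quasi-likelihood test, Benjamini-Hochberg).

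**Figure D5:**
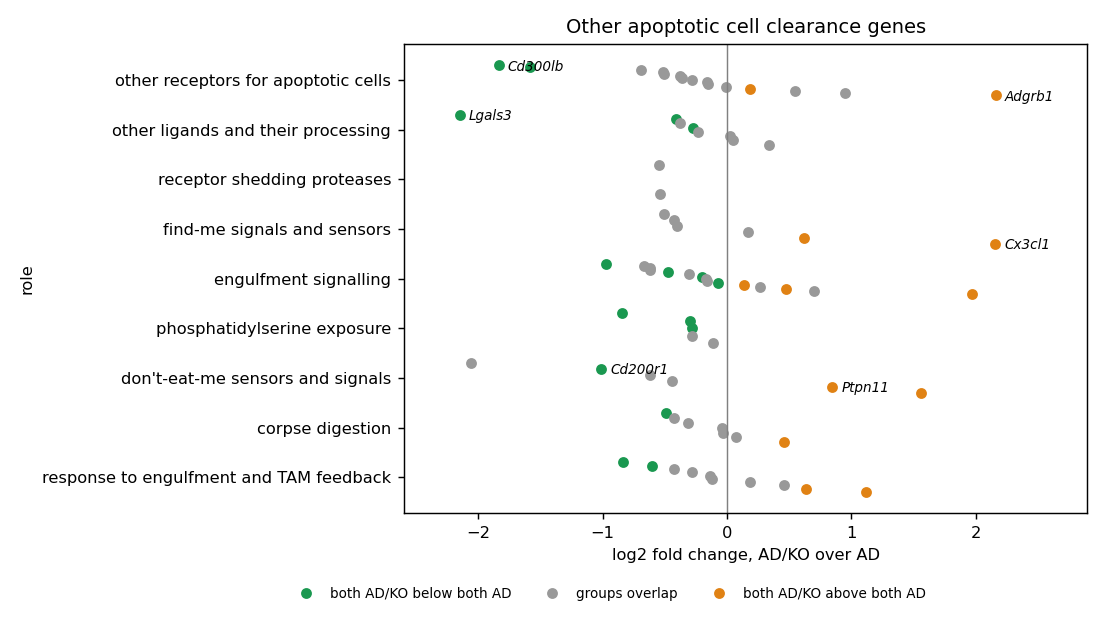
The plot of other clearance genes gives the log2 fold change of AD/KO over AD for each tested gene by role, coloured by whether both AD/KO libraries lay below (green), above (orange) or among (grey) the AD libraries. Lgals3 lies furthest to the left and Adgrb1 furthest to the right.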

How the data were processed

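The authors deposited 1 table of raw counts per gene symbol for each library. The build mm10 and the tools FastQC, HISAT2, SAMtools, featureCounts (Subread) and DESeq2 1.30.0 are named in the submitters' processing notes. The use of strand and of reads with several matches is not given in the sources used here. Genes were tested with edgeR 4.0.16 in R 4.3.3: filterByExpr (minimum count 10, minimum total 15), TMM scaling and the quasi-likelihood F-test of AD/KO against AD on all 4 libraries without covariates, with Benjamini-Hochberg adjustment over all 21439 genes at 0.05. The SE is the size of the log2 fold change divided by the square root of F. The fit was tested on simulated data. Exon lengths came from GENCODE M21 and coordinates and promoters from RefSeq, both GRCm38. Transcripts were compared with BLAST at 95% identity over 100 bases. Without molecular identifiers, counts are not independent molecules.

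The members, lists and tests were chosen with earlier results of these data known. Named were all members, Ociad1, of the pathway list the 3 largest differences each way among genes averaging 5 CPM or more whose groups did not overlap, and the 5 genes nearest to Axl and to Mertk. Alternatives were DESeq2 1.42.0, its size factors, scaling to 18 microglial genes, 2 other filters, the other quasi-likelihood method of edgeR, a replicate block, and leaving out each library.

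Of the marker lists, the T, B and NK cell genes (3 of 7 tested; Cd3e, Cd3g, Nkg7 and Klrb1c at 0 in some library) summed to 5.88 and 5.78 CPM in AD and 2.66 and 2.98 CPM in AD/KO. The endothelial and mural genes (9) summed to 57.8 and 76.9 CPM in AD and 66.7 and 113 CPM in AD/KO. The oligodendrocyte lineage genes (9) summed to 1322 and 2181 CPM in AD and 3192 and 6693 CPM in AD/KO. The pathway list shares Cx3cr1 and P2ry12 with the microglial markers.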

Additional observations from a re-analysis of the deposited data

How the results depend on the processing

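Of 110 values of the 10 members under alternatives, 97 were alike in direction and call, 5 passed the threshold and 8 changed direction (5 of them where a library was dropped). When scaled to the microglial genes, Axl turned to 0.30, Mertk to 0.0030 and Cd47 to 0.14, and the median of the other clearance genes to 0.31, all still below the median of all genes, which moved from −0.048 to 0.60. With a library left out, Axl ran from −1.08 to −0.20, Mertk from −1.30 to 0.23 (0.15 without AD replicate 1), and the median of the other clearance genes from −0.56 (without AD/KO replicate 1) to 0.029 (without AD/KO replicate 2). Gas6 ran from −0.18 to 0.24 and Elmo1 from −1.38 to 0.077: Gas6 turned to −0.050 without AD replicate 2 and to −0.18 without AD/KO replicate 1, and Elmo1 to 0.077 without AD/KO replicate 2.

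In all, the genes that passed numbered 0 by edgeR's quasi-likelihood test (1072 unadjusted), 91 by DESeq2, 4333 with the replicate block, and from 0 to 524 with a library left out (524 without AD replicate 2, 48 without AD replicate 1). It was 0 under the other 5 settings. The cause was not tested. Both groups use replicate numbers 1 and 2, whose meaning the labels leave out. Across genes, the deviations of libraries with the same number correlated at 0.72. With the replicate block, 20.2% of all genes and 5 members passed: Tyro3 (0.82), Pros1 (−0.94), Mfge8 (1.36), Dock2 (−1.03) and Cd300lf (−1.27), with 5 other clearance genes higher and 6 lower. The precision is limited by 2 libraries a group.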
